A study of Homo sapiens
Mus musculus and Homo sapiens and Mus musculus with 7 samples.

Results

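GAS5, SNHG1, SNHG5, SNHG6, SNHG7, SNHG8, SNHG12, SNHG15 and SNHG16 are human genes whose long non-coding transcripts carry small nucleolar RNAs (snoRNAs) in their introns. They were taken by their GENCODE 29 symbols, as 9 of the 58721 human genes counted. RNA was measured in 7 libraries from 2 cell lines, human HEK293 (an embryonic kidney line) and mouse NIH3T3 (a fibroblast line). In a co-culture the HEK293 cells expressed HA-tagged RPL22, a protein of the large ribosomal subunit, and the NIH3T3 cells expressed V5-tagged RPL22. Total RNA of that co-culture gave 1 library, the input, and 1 each came from HEK293 and NIH3T3 grown alone, for which the labels do not say whether the cells carried a tag. HA antibody was used for a first and a second immunoprecipitate (IP) and V5 antibody likewise. Both first IPs were made on the lysate numbered 1, the second HA IP on the lysate numbered 5 and the second V5 IP on that numbered 4, and the labels do not give the relation of these lysates.

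A snoRNA guides the chemical modification of ribosomal RNA, and most are cut out of an intron of a longer host transcript after splicing. The exons of the hosts described here are joined and exported without coding for a known conserved protein. Their spliced RNAs hold short reading frames, can be bound by ribosomes, and several are degraded by nonsense-mediated decay, a surveillance process that acts when translation stops early. Many hosts, like ribosomal protein mRNAs, start with a C followed by a run of pyrimidines, the terminal oligopyrimidine motif, which couples translation to growth signals. A pull-down of tagged ribosomes therefore places these RNAs beside mRNAs in the same measurement.

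Counts summed over all genes ranged from 826781 to 2063885 per library. Human genes took 26.9% of the input counts. Their share was 82.1% in the first HA IP and 77.6% in the second, and 6.25% and 4.48% in the V5 IPs, which target the mouse line. The V5 libraries thus held only 128915 and 81798 human counts, against 280163 in the input, 826673 in HEK293, and 729698 and 1213213 in the HA IPs. All levels below are counts per 1000000 human counts (CPM), and 1 human count is worth 3.57 CPM in the input. Among 7 marker genes chosen for HEK293, including KRT18, 4 were at 0 in the input, 2 in HEK293, 3 in each HA IP and 6 and 4 in the V5 IPs. Their summed level was 182 CPM in input RNA and 305 in HEK293, against 248 and 185 in the HA pair, with 85.3 and 73.4 in the V5 pair. KRT18 was at 0 in the first V5 IP, where NEFL alone gave the 85.3 CPM. The human copies of 7 fibroblast markers summed to between 0 and 12.2 CPM. COL1A2 and DCN were at 0 in all libraries, and the 12.2 CPM, in the second V5 IP, was 1 count of COL1A1. The human COL1A1 also took 4 counts in NIH3T3. Mitochondrial genes took 5.58% of human counts in input RNA and 8.35% in HEK293, against 0.354% and 0.466% in the HA pair, with 2.28% and 3.54% in the V5 pair. With these genes left out, the fitted log2 changes of HA against input were -0.81 for GAS5 and -1.09 for SNHG5, as with them, while the calls over all genes fell from 39 to 13. In such bulk libraries fewer HEK293 cells and less RNA per cell cannot be told apart. All intervals are exact 95% intervals for counting error alone, with each read taken as independent. Molecules were not tagged with identifiers, so copies made by amplification cannot be told apart and the intervals can be too narrow.

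The 5′ starts of annotated spliced transcripts were read for an opening run of pyrimidines, and the choice of transcript below favours long runs. For each gene except SNHG6, which is not shown, the first 30 bases are printed for the RefSeq-linked transcript with the longest opening run of pyrimidines, from the GENCODE 29 transcripts on hg38, with that opening run in capitals.
GAS5: CTTTTCgaggtaggagtcgactcctgtgag
SNHG1: Cgcgcacgttggaaccgaagagagctctgt
SNHG5: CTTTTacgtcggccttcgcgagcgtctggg
SNHG7: CTCTgcgtgcgccggaggctgccgtggcgg
SNHG8: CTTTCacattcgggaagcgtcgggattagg
SNHG12: CCTTCCTgcgcgccgttccccgctagtcgc
SNHG15: TCCactgagttgacacgcagacgcagcctc
SNHG16: TTTTCgaggtcggccgcgtggctggaagac

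These starts lie at chr1:173867960-173867989 for GAS5, chr11:62855431-62855460 for SNHG1, chr6:85678704-85678733 for SNHG5 and chr9:136728155-136728184 for SNHG7, all on the minus strand. SNHG8 lies at chr4:118278758-118278787 on the plus strand, SNHG12 at chr1:28581789-28581818 and SNHG15 at chr7:44986805-44986834 on the minus strand, and SNHG16 at chr17:76557770-76557799 on the plus strand. GAS5, SNHG5 and SNHG8 opened with C followed by 4 or more pyrimidines, and SNHG12 had the longest run shown. The transcripts printed for SNHG7, SNHG15, SNHG16 and SNHG1 had a shorter run or did not open with C.

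Over all annotated transcripts, an opening of C within a run of at least 5 pyrimidines (C or T) was found in 20 of 126 transcripts of the 9 genes (15.9%). It was found in 2.90% of 39777 transcripts of human genes with 60 or more counts and in 20.4% of 824 transcripts of cytosolic ribosomal protein genes. At least 1 such transcript was annotated for 7 of the 9 genes (77.8%), all but SNHG7 and SNHG15, against 19.1% of 4073 genes with 60 or more counts and 67 of 82 ribosomal protein genes. A gene with more annotated transcripts has more chances of such a start, and the 9 genes had 4 to 29 each. The match is a description of annotated starts, which were not measured here. In the selected transcripts the longest reading frame that opens with ATG ran from 37 codons in SNHG5 to 79 in SNHG7.

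Inside 8 of the 9 genes the annotation placed 23 snoRNA genes at 20 separate loci, with 7 in SNHG1, 5 in SNHG12, 4 in SNHG7, 3 in SNHG16 and 1 each in SNHG5, SNHG6, SNHG8 and SNHG15. Entries overlapped in SNHG7, where the 4 lie at 2 loci, and in SNHG12, where the 5 lie at 4. The snoRNAs of GAS5 are not analysed here. The snoRNAs of 3 abundant hosts are printed from the GENCODE 29 transcripts to show the RNA class that the hosts carry. Capitals mark the C box TGATGA and the D box CTGA in SNORD50B, a C/D-type RNA that guides methylation, and the ACA near the 3′ end of SNORA24 and SNORA9, H/ACA-type RNAs that guide pseudouridylation.
SNORD50B: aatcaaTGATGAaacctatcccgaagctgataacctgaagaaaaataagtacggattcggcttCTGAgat
SNORA24: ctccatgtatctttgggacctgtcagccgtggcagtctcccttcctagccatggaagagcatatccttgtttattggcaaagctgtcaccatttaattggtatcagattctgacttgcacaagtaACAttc
SNORA9: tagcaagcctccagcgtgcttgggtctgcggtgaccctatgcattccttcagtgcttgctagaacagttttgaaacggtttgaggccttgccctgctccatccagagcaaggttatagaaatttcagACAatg

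SNORD50B lies within SNHG5 at chr6:85677589-85677658 on the minus strand, SNORA24 within SNHG8 at chr4:118279190-118279320 on the plus strand, and SNORA9 within SNHG15 at chr7:44985378-44985510 on the minus strand. On the RNA strand, TGATGA in the first 18 bases together with CTGA in the last 12 was found in 201 of 955 annotated snoRNAs (21.0%), and ACA placed 3 bases before the end in 281 (29.4%). All 23 snoRNA genes had 0 counts in all 7 libraries. Under the counting options in the file headers, a read that lay in exons of both a host and a snoRNA was counted for neither. Exons of snoRNA genes covered 15.3% of the exonic bases of SNHG1, 14.2% of SNHG8 and 9.35% of SNHG12.

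In the NIH3T3 library all 9 genes had 0 counts of 1999078, which allows up to 3 counts for each. Reads of mouse RNA thus gave no count on these human genes at that depth. Together the 9 genes held 368 counts in input RNA and 1187 in HEK293, against 628 and 1233 in the HA pair, with 164 and 106 in the V5 pair. This was 0.131% of human counts in the input (0.118 to 0.145%), 0.144% in HEK293 (0.136 to 0.152%), 0.0861% and 0.102% in the HA IPs (0.0795 to 0.0931% and 0.0960 to 0.107%), and 0.127% and 0.130% in the V5 IPs (0.109 to 0.148% and 0.106 to 0.157%). Both HA IPs lay below the other 4 libraries on this scale. With TMM factors, which rescale each library to the bulk of its genes, the summed level was 1594 CPM in input RNA and 1535 in HEK293, against 805 and 1236 in the HA pair, with 1067 and 1047 in the V5 pair. On that second scale the HA IPs stayed below the input and HEK293, but the second HA IP lay above both V5 IPs, so the order of HA and V5 depended on the scaling.

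**Figure D1:**
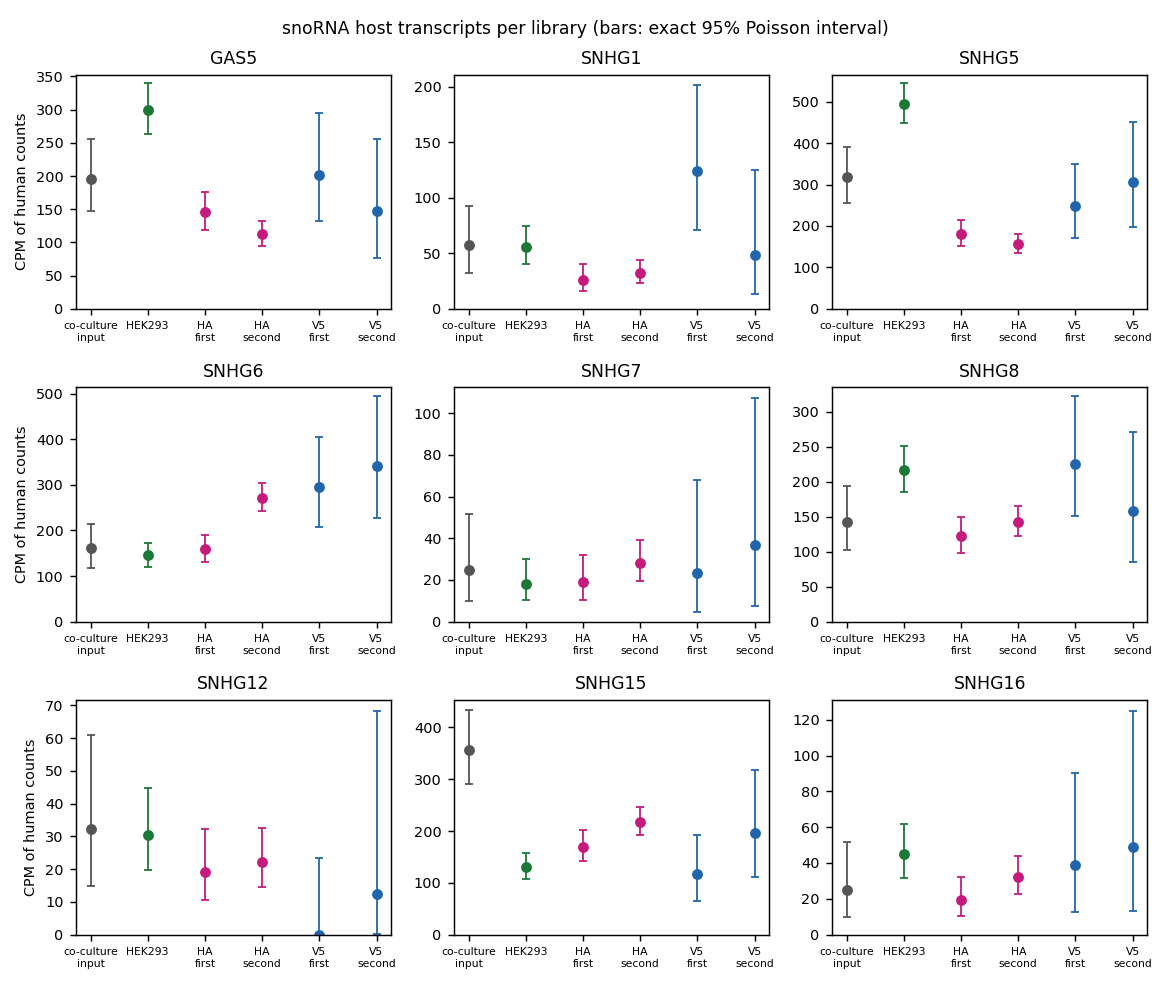
Level of each of the 9 genes (CPM of human counts, linear axis from 0) in the co-culture input, the HEK293 monoculture, the first and second HA IPs and the first and second V5 IPs, 1 point per library with its exact 95% Poisson interval, or up to 3 counts where none was seen. SNHG5 and GAS5 were highest in HEK293 at 495 and 300 CPM, SNHG15 was highest in the input at 357 CPM, and intervals were widest in the V5 IPs.

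GAS5, named for its rise in growth-arrested cells (chromosome 1, 173863900 to 173868882, minus strand), stood at 196 CPM in input RNA and 300 in HEK293, against 145 and 112 in the HA pair, with 202 and 147 in the V5 pair. Both HA IPs lay below the other 4 libraries, by a narrow margin between the first HA IP and the second V5 IP. SNHG5 (chromosome 6, 85660950 to 85678748, minus strand), host of SNORD50B, had the highest level of the 9 in HEK293, 495 CPM. The input had 318 CPM, the HA pair 181 and 157, and the V5 pair 248 and 306, so the HA pair again held the lowest values. The interval of the first HA IP (151.4 to 215) overlapped those of the V5 IPs (170 to 350 and 198 to 451). SNHG8 (chromosome 4, 118278709 to 118279823, plus strand), host of SNORA24, had 142.8 CPM in input RNA and 217 in HEK293, against 122.0 and 142.6 in the HA pair, with 225 and 159 in the V5 pair. Its second HA IP was almost the same as the input.

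SNHG15 (chromosome 7, 44983023 to 44986961, minus strand), host of SNORA9 and a short-lived RNA, had another order. Its level was 357 CPM in input RNA and 131 in HEK293, against 170 and 218 in the HA pair, with 116 and 196 in the V5 pair. The input stood above all other libraries and HEK293 was among the lowest. SNHG6 (chromosome 8, 66921684 to 66926398, minus strand), host of SNORD87, had 161 CPM in input RNA and 145 in HEK293, against 159 and 272 in the HA pair, with 295 and 342 in the V5 pair. The first HA IP matched the input and HEK293, the second lay well above them, and both V5 IPs were higher still in CPM. Exons of other genes, MCMDC2 and SNORD87, covered 36.4% of the exonic bases of SNHG6, and a read that lay in exons of SNHG6 and of either of these was counted for neither.

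The remaining 4 genes were low. SNHG1 (chromosome 11, 62851988 to 62855914, minus strand), host of SNORD22, SNORD25 and 5 further C/D-type genes, had 57.1 CPM in input RNA and 55.6 in HEK293, against 26.0 and 32.1 in the HA pair, with 124 and 48.9 in the V5 pair. The HA pair was lowest, and the V5 values rested on 16 and 4 counts. SNHG16 (chromosome 17, 76557766 to 76565348, plus strand), host of SNORD1A, SNORD1B and SNORD1C, had 25.0 CPM in input RNA and 44.8 in HEK293, against 19.2 and 32.1 in the HA pair, with 38.8 and 48.9 in the V5 pair. SNHG7 (chromosome 9, 136721366 to 136728184, minus strand), host of SNORA17A and SNORA17B, had 25.0 CPM in input RNA and 18.1 in HEK293, against 19.2 and 28.0 in the HA pair, with 23.3 and 36.7 in the V5 pair, with overlapping intervals in all 6 libraries. Exons of other genes covered 31.4% of SNHG7 and 33.4% of SNHG16. SNHG12 (chromosome 1, 28578538 to 28583132, minus strand), host of SNORD99 and SNORA44 among others, had 32.1 CPM in the input, 30.2 in HEK293 and 19.2 and 22.3 in the HA IPs. The first V5 IP held 0 counts of SNHG12, which allows up to 23.3 CPM, and the second held 1 count, 12.2 CPM, so its V5 level was not distinguishable from its HA level at this depth.

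Gene lengths differed from 923 exonic bases in SNHG8 to 5362 in SNHG16, so levels were ordered between genes as CPM per kilobase. In HEK293 the order over all exonic bases was SNHG8 at 235 CPM per kilobase, SNHG5 at 176, SNHG6 at 116, GAS5 at 82.6, SNHG15 at 35.8, SNHG1 at 14.8, SNHG16 at 8.35, SNHG12 at 7.09 and SNHG7 at 4.18. This length counts bases under exons of other genes, where reads are lost to the count. Over the exonic bases free of other genes, a length chosen after seeing the data, SNHG6 stood at 183 CPM per kilobase (152 to 219) and SNHG5 at 181 (164 to 199), so these neighbours could not be ordered. SNHG8 (235 to 317) lay above both and GAS5 (73.5 to 94.7) below both on that scale. Next came SNHG15 at 37.2 (30.5 to 44.9), SNHG1 at 17.5 (12.8 to 23.3), SNHG16 at 12.5 (8.82 to 17.3), SNHG12 at 7.84 (5.07 to 11.6) and SNHG7 at 6.08 (3.41 to 10.04). The last 4 could not be fully ordered, since each overlapped the next. In the HA IPs SNHG6 had the highest mean, 173 ± 64.1 CPM per kilobase over all exonic bases (SD, n = 2), and SNHG8 followed with 143.3 ± 15.8 (SD, n = 2). Over all exonic bases these neighbours did not differ beyond their spread. Over the free bases the means were 272 ± 101 for SNHG6 and 167 ± 18.4 for SNHG8 (SD, n = 2 each). Over all exonic bases SNHG5 had 60.3 ± 5.91, SNHG15 53.1 ± 9.24 and GAS5 35.4 ± 6.46 (SD, n = 2), and SNHG5 and SNHG15 did not differ beyond their spread either.

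The make-up of the 9 genes' counts differed between HEK293 and the HA IPs. SNHG5 gave 34.5% of them in HEK293 (31.8 to 37.2%), 21.0% in the first HA IP (17.9 to 24.4%) and 15.5% in the second (13.5 to 17.6%). SNHG6 gave 10.1% in HEK293 (8.45 to 11.97%) against 18.5% (15.5 to 21.7%) and 26.8% (24.3 to 29.3%) in the HA IPs. SNHG15 gave 9.10% in HEK293 (7.52 to 10.9%) against 19.7% (16.7 to 23.1%) and 21.4% (19.2 to 23.8%). Within this set, a share does not depend on how libraries are scaled, but it rises when other members fall. In CPM SNHG6 stood at 145 (120 to 174) in HEK293 and 159 (131 to 191) in the first HA IP, with overlapping intervals. In the second HA IP it stood at 272 (243 to 303). The shares of SNHG6 and SNHG15 were higher, and that of SNHG5 lower, in each HA IP than in HEK293 by more than the counting intervals, with a single HEK293 library and no test over replicates. In the V5 IPs SNHG6 gave 23.2% (16.9 to 30.4%) and 26.4% (18.3 to 35.9%), and SNHG5 19.5% (13.7 to 26.4%) and 23.6% (15.9 to 32.8%), with intervals that overlapped those of both HA IPs. Their shares of SNHG15, 9.15% (5.21 to 14.6%) and 15.1% (8.88 to 23.4%), had intervals that included that of HEK293 or overlapped it. The interval of the second V5 IP also overlapped those of both HA IPs, while that of the first lay below them. In the input SNHG15 took 27.2% (22.7 to 32.0%) and SNHG5 24.2% (19.9 to 28.9%). SNHG8 kept a similar share in HEK293 and both HA IPs, 15.1% (13.1 to 17.2%), 14.2% (11.5 to 17.1%) and 14.03% (12.1 to 16.1%).

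**Figure D2:**
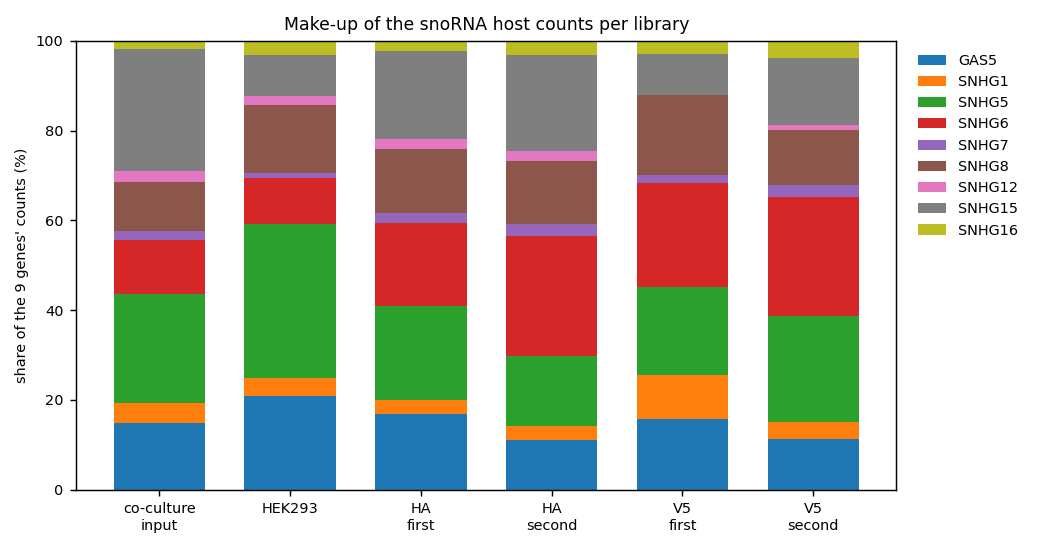
Share of the 9 genes' summed counts (%, stacked from 0 to 100) taken by each gene in the 6 libraries with human RNA. SNHG5 filled 34.5% of the column in HEK293 and 21.0% and 15.5% in the HA IPs, while SNHG6 and SNHG15 filled more of the HA columns than of the HEK293 column.

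The comparison of HA IPs with the input asked which human RNAs were enriched with tagged ribosomes over total RNA. Of the 9 genes, 8 had a lower fitted level in the HA IPs than in the input and only SNHG6 a higher one, and none passed edgeR's quasi-likelihood test at 0.05 after Benjamini-Hochberg adjustment over 6244 human genes. The test called 39 genes, 0.625% of those tested, 12 higher and 27 lower, and 0 of the 9 had an unadjusted p under 0.05. DESeq2's Wald test likewise called 0 of the 9. The median log2 change was -0.78 over the 9 genes and 0.38 over all genes tested, and 38.5% of all genes were below 0. In CPM both HA IPs lay below the input for 6 of the 9 genes, against 25.8% of all genes. With TMM-scaled CPM this was 5 of 9, against 30% of all genes.

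SNHG1 had the lowest log2 change, -1.12 (SE 1.06), with an edgeR adjusted p of 0.847. SNHG5 changed by -1.09 (SE 0.65, edgeR adjusted p = 0.658) and SNHG15 by -1.03 (SE 0.68, edgeR adjusted p = 0.738). For GAS5 the value was -0.81 (SE 0.72, edgeR adjusted p = 0.830). All 4 values lay within 2 standard errors of 0, with 1 input library that was assumed to vary like the IPs. SNHG12 at -0.78, SNHG8 at -0.27, SNHG7 at -0.21 and SNHG16 at -0.08 were closer to 0 or less precise, and SNHG6 was at 0.30 (SE 0.72). The direction for SNHG6 turned to -0.43 without the second HA IP, and those for SNHG7 and SNHG16 turned to 0.11 and 0.31 without the first.

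The log2 change against the input followed base composition across genes, with Spearman's rho = -0.69 over 2255 genes of at least 50 CPM, given as a description because these genes share their libraries. In the other comparisons rho over the same genes was -0.61 for V5 against input, 0.05 for HA against V5 and 0.34 for HA against HEK293. The GC content of the 9 genes was 41.3% in SNHG6, 43.5% in GAS5, 44.4% in SNHG1, 44.8% in SNHG5, 45.5% in SNHG8, 45.7% in SNHG16, 51.97% in SNHG12, 53.1% in SNHG15 and 61.2% in SNHG7, against a median of 49.0% in those genes. After the trend with GC was removed, which was chosen after seeing the data, SNHG5 stood at -1.81 (SE 0.56), GAS5 at -1.71 (SE 0.64), SNHG1 at -1.90 (SE 1.03) and SNHG6 at -0.87 (SE 0.62). All 9 but SNHG7 were then below 0, with a median of -0.87 against 0.14 over all genes. None was called, and SNHG5 had the smallest edgeR adjusted p of the 9, 0.147.

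**Figure D3:**
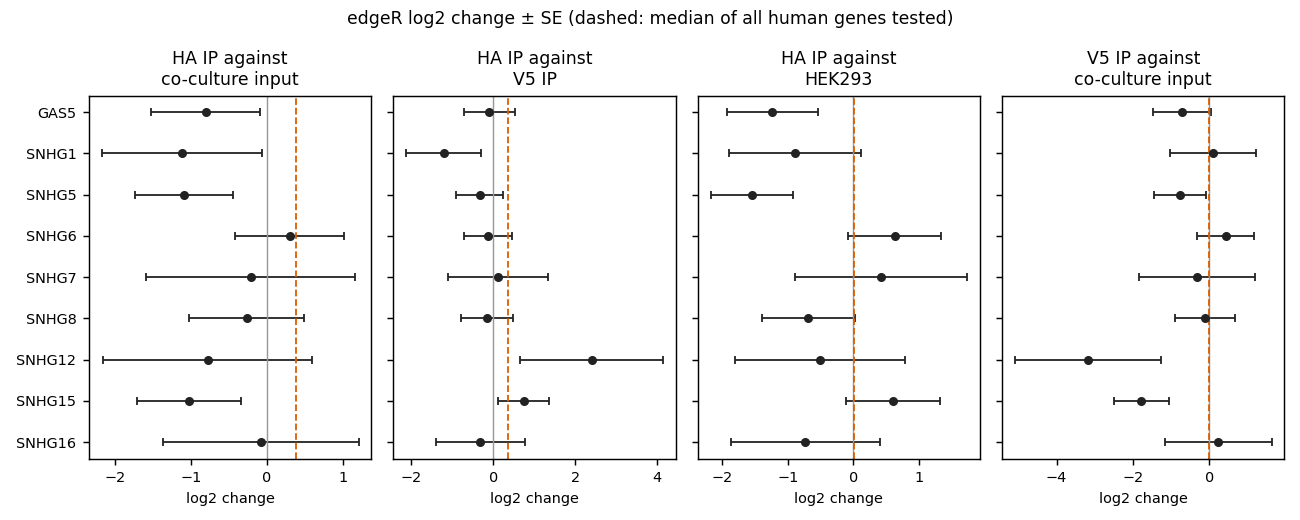
Fitted log2 change of the 9 genes (points, bars ± SE, linear axis in log2 units) in HA IPs against input, HA IPs against V5 IPs, HA IPs against HEK293 and V5 IPs against input, with the median of all 6244 human genes tested as a dashed line. Against the input all 9 points lie left of the median of 0.38, none passed the test, and the SNHG12 values in the panels with V5 rest on 0 and 1 counts.

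The comparison of HA IPs with HEK293 grown alone set ribosome-bound RNA from co-culture beside total RNA of the same line. SNHG5 had the lowest log2 change of the 9, with 495 CPM in HEK293 and 169 ± 16.6 in the HA IPs (SD, n = 2), at -1.55 (SE 0.63). Its unadjusted p in edgeR's quasi-likelihood test was 0.0133 and its adjusted p 0.913. GAS5 had 300 CPM in HEK293 and 129 ± 23.5 in the HA IPs (SD, n = 2), a log2 change of -1.24 (SE 0.69, edgeR adjusted p = 0.9999). Neither passed the threshold, and the test called 23 genes, 0.368% of those tested, 3 higher and 20 lower, with 0 of the 9 among them. SNHG5 alone had an unadjusted p under 0.05.

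Both HA IPs lay below HEK293 for 6 of the 9 genes, GAS5, SNHG1, SNHG5, SNHG8, SNHG12 and SNHG16, against 33.6% of all genes. They lay above it for SNHG6, SNHG7 and SNHG15, against 34.1% of all genes. With TMM-scaled CPM the same 6 were below, against 36.1% of all genes, and SNHG15 alone was above, against 33.1%. The fitted log2 changes of these 3 were 0.63 (SE 0.71), 0.43 (SE 1.31) and 0.60 (SE 0.72). SNHG6 turned to -0.07 and SNHG7 to -0.11 without the second HA IP, while SNHG15 stayed above 0 in all 14 alternatives. The median over the 9 genes was -0.68 and over all genes 0.01.

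For 5 of the 9 genes, GAS5, SNHG1, SNHG5, SNHG8 and SNHG12, both HA IPs lay below both the input and HEK293 in CPM, against 11.6% of all genes tested. With TMM-scaled CPM this held for 4 of the 9, without SNHG8, against 13.5% of all genes. Both sets rest on the same 2 HA libraries, so they are a single observation and not 2.

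HA and V5 IPs were compared to set human RNA pulled down with its own tag beside human RNA carried over with the mouse tag. In CPM both HA IPs lay below both V5 IPs for 6 of the 9 genes, against 15% of all genes tested, and above them for SNHG12, against 25.7%. This count depended on scaling. With TMM-scaled CPM it was 2 genes below, SNHG1 and SNHG5, against 10.2% of all genes, and 2 above, SNHG12 and SNHG15, against 34.8%. The median of all genes shifted from 0.37 with TMM to less than 0.01 with total human counts, and that of the 9 genes from -0.12 to -0.55.

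In edgeR's quasi-likelihood test 0 of the 9 were called, against 23 of 6244 genes (0.368%), and 0 had an unadjusted p under 0.05. SNHG1, at 29.1 ± 4.32 CPM in HA and 86.5 ± 53.2 in V5 (SD, n = 2 each), had a log2 change of -1.21 (SE 0.91, edgeR adjusted p = 0.606). SNHG5 had 169 ± 16.6 against 277 ± 40.6 CPM (SD, n = 2 each) and a log2 change of -0.33 (SE 0.56). SNHG15 had 194 ± 33.7 against 156 ± 56.0 CPM (SD, n = 2 each) and a log2 change of 0.75 (SE 0.62, edgeR adjusted p = 0.648). The exact permutation test of mean CPM, two-sided, gave p = 0.333 for 7 of the 9 genes, the smallest that 6 assignments of 2 against 2 libraries allow, and 0.667 for SNHG7 and SNHG15. The edgeR p-values took their spread only from the differences between first and second IPs, with information shared across genes. The permutation p-values rank the observed difference in mean CPM among the 6 assignments. Whether either kind covers variation between cultures is not known from the labels.

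The V5 IPs, which hold human RNA carried over with the mouse tag, were also set against the input, total RNA without an IP. This comparison and that of HA with the input share the input library. SNHG15 stood at 116 and 196 CPM against 357 in the input, a log2 change of -1.78 (SE 0.72). Its unadjusted p was 0.0138 and its edgeR adjusted p 0.248, the smallest of the 9. For SNHG15 all 4 IPs, HA and V5, thus lay below the input. SNHG6 had 295 and 342 CPM against 161, a log2 change of 0.42 (SE 0.74, edgeR adjusted p = 0.837). The edgeR test called 47 genes, 0.753% of those tested, and 0 of the 9. Both V5 IPs lay below the input for SNHG5, SNHG12 and SNHG15, against 27.3% of all genes, and above it for SNHG6, SNHG8 and SNHG16, against 30.3%. With TMM-scaled CPM 5 were below, GAS5, SNHG5, SNHG7, SNHG12 and SNHG15, against 37.8% of all genes, and 2 above, SNHG6 and SNHG16, against 23.2%. The value for SNHG8 turned from -0.11 with TMM to 0.44 with total human counts.

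Input and HEK293 are total RNA without an IP, 1 library each, and were compared by the ratio of CPM with its exact interval and no test. SNHG15 was 2.73-fold higher in the input (2.06 to 3.62). GAS5 had a ratio of 0.654 (0.479 to 0.879), SNHG5 of 0.642 (0.505 to 0.809) and SNHG8 of 0.659 (0.456 to 0.933). SNHG1 had a ratio of 1.03 (0.542 to 1.85) and SNHG6 of 1.11 (0.767 to 1.57). Of the 6 genes at 50 CPM or more in either library, only SNHG15 differed by over 2-fold, while 53.7% of 2558 human genes at that level did. These libraries thus differed widely in many genes, and the ratio of SNHG15 is read against that. The median log2 ratio of those 2558 genes was -0.31, while GAS5 had -0.60, SNHG5 -0.63 and SNHG8 -0.59. The intervals of these 3 genes included that median, that of SNHG5 only just. With TMM-scaled library sizes the ratio was 3.10 for SNHG15 (2.34 to 4.11), 0.743 for GAS5 (0.544 to 0.998), 0.729 for SNHG5 (0.573 to 0.919) and 0.748 for SNHG8 (0.517 to 1.06), so that the interval of SNHG8 then included 1.

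**Figure D4:**
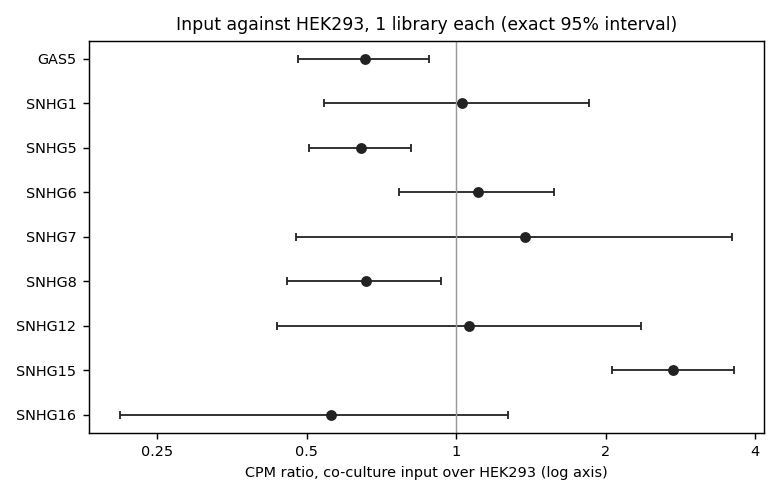
Ratio of CPM in the co-culture input to CPM in the HEK293 monoculture for each of the 9 genes (log axis), 1 library each, with the exact 95% interval for counting error. SNHG15 lies at 2.73 and the intervals of GAS5, SNHG5 and SNHG8 lie below 1 on this scale, that of SNHG8 not with TMM-scaled library sizes.

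The pair of HA IPs and the pair of V5 IPs show how far single libraries of a kind can differ. Between the HA IPs none of the 5 genes at 50 CPM or more differed by over 2-fold, against 20.2% of 2590 genes. SNHG6 differed most, with a first over second ratio of 0.584 (0.469 to 0.724), beyond counting error. SNHG15 had a ratio of 0.781 (0.626 to 0.970), and GAS5, SNHG5 and SNHG8 had intervals that included 1. Between the V5 IPs only SNHG1 differed by over 2-fold, 2.54 (0.819 to 10.4), with an interval that included 1, while 48.1% of 3290 genes did.

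The human genes whose pattern over the 6 libraries was most like the mean pattern of the 9 were taken from 2249 other genes with a mean of at least 50 CPM, by the root mean square difference of centred log2 CPM. RPS18, a protein of the small ribosomal subunit, was nearest with a difference of 0.11. It had 9712 CPM in input RNA and 8411 in HEK293, against 5955 and 7365 in the HA pair, with 10588 and 9854 in the V5 pair. C4orf3 (0.12), STOML2 (0.14), HM13 (0.15) and MTX1 (0.17) followed. A likeness in the order of libraries is fixed by this choice.

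Other genes of the same pathway were taken from lists. Of 19 other snoRNA hosts listed as non-coding, 12 were tested, and none passed the edgeR test in any of the 4 comparisons. In HA against input 10 were below 0 and 2 above, with a median of -0.43. In HA against HEK293 7 were below 0 and 5 above, with a median of -0.17. In HA against V5 3 were below 0 and 9 above, with a median of 0.12. The list also holds TAF1D, a protein-coding gene, which was 1 of the 2 above 0 in HA against input, at 0.90 (SE 1.19). The most abundant, LRRC75A-AS1, had 186 CPM in input RNA and 224 in HEK293, against 129 and 195 in the HA pair, with 248 and 183 in the V5 pair. EPB41L4A-AS1 had 157, 112, 95.9 and 157, and 186 and 269 CPM in the same order. Among 21 tested protein-coding snoRNA hosts outside the ribosome, 11 were above 0 and 10 below in HA against input, with a median of 0.15 and none called. In HA against HEK293 4 were above 0 and 17 below, with a median of -0.35. NCL, which encodes the nucleolar protein nucleolin, had 336 CPM in input RNA, its lowest value, and 1334 in HEK293. The HA pair had 1481 and 996 CPM and the V5 pair 2645 and 2164. In HA against input NCL was at 1.67 (SE 0.58, edgeR adjusted p = 0.215). It rose in V5 against input by 2.28 on the log2 scale (SE 0.60, edgeR adjusted p = 0.0274), the only call in that list. That call was lost when either V5 IP was left out, with edgeR adjusted p-values of 0.204 (first left out) and 0.122 (second left out).

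Of 15 tested oligopyrimidine mRNAs outside the ribosome, 9 were above 0 and 6 below in HA against input, with a median of 0.28 and none called in any of the 4 comparisons. In HA against HEK293 4 were above 0 and 11 below, with a median of -0.65, near the -0.68 of the 9 genes. RACK1, a ribosome-bound scaffold protein, had 6132 CPM in input RNA and 8255 in HEK293, against 2972 and 2789 in the HA pair, with 5376 and 4646 in the V5 pair. Its order of libraries was that of SNHG5 for the HA pair, which was lowest. NPM1, which encodes the nucleolar protein nucleophosmin, had 1092 CPM in input RNA and 5002 in HEK293, against 4085 and 2338 in the HA pair, with 4740 and 4389 in the V5 pair. Its lowest value was in the input, unlike that of GAS5 or SNHG5.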

How the data were processed

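Each of the 7 deposited files gives read counts per gene as whole numbers. The authors made them, per the file headers, by running featureCounts 1.5.2 on exons joined into genes, paired and without strand, on a joined human and mouse annotation, with no option for reads in several genes. STAR 2.5.2, Trim Galore, bcl2fastq, SAMtools and the build hg38 are named in the submitters' processing notes, and the labels' protocols name SMART-seq cDNA and Nextera DNA Flex. All 58721 human identifiers matched GENCODE 29. Mouse copies of the 9 genes are not analysed here.

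Human counts were tested with edgeR 4.0.16 in R 4.3.3, by a quasi-likelihood fit over the 6 libraries with human RNA, TMM scaling, filterByExpr (minimum count 10, total 15), two-sided, with Benjamini-Hochberg adjustment over 6244 genes and a threshold of 0.05. All 9 genes passed the filter. The fit had 2 residual degrees of freedom, both from the IP pairs, and a biological coefficient of variation of 51.2%, and the single libraries were assumed to vary like the IPs. Nothing in the labels says that the IPs of a pair came from separate cultures. Single libraries were compared by CPM ratios, called over 2-fold from log2 CPM with a prior count of 2. Exact binomial (Clopper-Pearson) and Poisson intervals are at 95%, and a count of 0 allows up to 3 counts. DESeq2 1.42.0 was an alternative. Other steps used scipy 1.17.1, pandas 2.3.3, numpy 2.4.6 and matplotlib 3.10.9 in Python 3.11.15. The fit was tested on simulated data.

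The members, gene lists and tests were chosen with earlier results of these data known. Named genes are the 9, up to 4 called members of each list or its 2 most abundant by mean CPM, and the 5 genes with the nearest profile. TAF1D is named in addition, as a coding gene in a list of non-coding hosts. Alternatives were total human counts or DESeq2 size factors for scaling, no filter, 50 counts in 2 libraries, IP order as a replicate block, only the groups compared, genes with mouse reads or mitochondrial genes left out, DESeq2's Wald test, each IP left out, and, added after seeing the data, removal of the GC trend and levels per kilobase of exonic bases free of other genes.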

Additional observations from a re-analysis of the deposited data

How the results depend on the processing

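Each of the 9 genes had a value in 10 to 14 of the 14 alternatives of a comparison, since filters on low counts removed low genes in some, and none passed the threshold in those, where the smallest adjusted p was 0.147 in HA against input, 0.227 in HA against V5, 0.147 in HA against HEK293 and 0.140 in V5 against input. Of 476 alternative values, 442 kept their direction. The causes of the changes below were not tested. Calls over all genes in HA against input, 39 with TMM, were 68 with DESeq2 size factors, 104 with total counts (65 higher, 39 lower, against 12 and 27), 260 with only the groups compared, 13 without mitochondrial genes, 64 with DESeq2's Wald test and 29 to 140 with an IP left out. In HA against V5, 23 became 38 with total counts, 10 without mitochondrial genes, 43 with the GC trend removed and 18 to 117 with an IP left out. In HA against HEK293, 23 became 53 with total counts (24 higher, 29 lower, against 3 and 20), 48 with only the groups compared, 6 without mitochondrial genes, 42 with the GC trend removed, 39 with DESeq2's Wald test and 26 to 63 with an IP left out. In V5 against input, 47 became 72 with DESeq2 size factors, 105 with total counts (85 higher, 20 lower, against 16 and 31), 30 without the filter, 7 with 50 counts in 2 libraries, 71 with only the groups compared and 76 to 167 with an IP left out.

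With the GC trend removed the 30 calls in HA against input were 4 higher and 26 lower. For the members, 34 values changed direction. In HA against input SNHG16 became 0.048 with total counts, SNHG7 0.11 and SNHG16 0.31 without the first HA IP (both -0.79 without the second), SNHG6 -0.43 without the second, and SNHG6 -0.87 and SNHG7 0.31 with the GC trend removed. In HA against V5 SNHG7, at 0.12, became -0.23 with DESeq2 size factors, -0.30 with total counts, -0.19 with only the groups compared, -0.25 with DESeq2's Wald test, -0.41 with the GC trend removed, -0.47 without the second HA IP and -0.19 without the first V5 IP. Without the first HA IP SNHG6 became 0.28, SNHG8 0.056 and SNHG16 0.062, against -0.85, -0.52 and -1.02 without the second, and without the first V5 IP GAS5 became 0.18 and SNHG8 0.15, against -0.29 for GAS5 without the second. In HA against HEK293 SNHG6 became -0.066 and SNHG7 -0.11 without the second HA IP, against 1.05 and 0.76 without the first, and SNHG7 -0.16 with the GC trend removed. In V5 against input SNHG8 became 0.0011 with DESeq2 size factors, 0.44 with total counts, 0.26 with 50 counts in 2 libraries, 0.14 with only the groups compared and 0.13 without the second V5 IP (-0.40 without the first). SNHG7 became 0.23 with total counts, SNHG1 -0.77 without the first V5 IP and 0.59 without the second, and SNHG1 -0.26, SNHG6 -0.33 and SNHG7 0.71 with the GC trend removed.

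With IP order as a replicate block the calls were 49 in HA against input, 24 in HA against V5, 20 in HA against HEK293 and 57 in V5 against input, and SNHG6 became -0.14 against input, SNHG7 -0.046 against HEK293 and SNHG16 -0.13 in V5 against input. The first IPs share a lysate number and the second do not. The first minus second differences of HA and V5 had r = 0.20 over 2255 genes, and with only 2 pairs the order was not taken as a pairing. Leaving out an IP leaves 1 library in that group, which was assumed to vary like the others. Depth limited the V5 values most, where the 9 genes rested on 164 and 106 counts. Over exonic bases free of other genes the HEK293 level moved beyond its interval for SNHG6, SNHG8 and SNHG16.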

Other observations

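The mRNAs of the proteins that build snoRNA particles showed no common direction. Of 18 tested, 9 were above 0 and 9 below in HA against input, with a median of -0.03 against 0.38 over all genes, and none was called. NOP58, a core protein of C/D-type particles, had 7.14 CPM in input RNA and 254 in HEK293, against 163 and 87.4 in the HA pair, with 334 and 257 in the V5 pair. It rose in V5 against input by 4.78 on the log2 scale (SE 1.16, edgeR adjusted p = 0.0172), the only call in that list. The input value of NOP58 rests on 2 counts in 1 library, and with the filter of 50 counts in 2 libraries the adjusted p was 0.0653.

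Of 11 tested mRNAs for nonsense-mediated decay and exon junction factors, 10 were above 0 in HA against input and 1 below, with a median of 0.92 and none called in any of the 4 comparisons. RBM8A, an exon junction protein, had 142.8 CPM in input RNA and 134 in HEK293, against 297 and 328 in the HA pair, with 202 and 232 in the V5 pair. UPF3B, which links the exon junction to decay, had 57.1 CPM in input RNA and 198 in HEK293, against 278 and 195 in the HA pair, with 69.8 and 147 in the V5 pair. Among 6 tested long non-coding RNAs that host no snoRNA, 5 were below 0 in HA against HEK293. MALAT1, a nuclear RNA, was the only call there, at 2906 CPM in HEK293 and 311 and 423 in the HA IPs, and fell by 2.95 on the log2 scale (SE 0.52, edgeR adjusted p = 6.3e-06). It was called in all 14 alternatives. Its values were 221 CPM in the input and 1001 and 1602 in the V5 IPs, so both HA IPs lay above the input. In HA against input MALAT1 was at 0.59 (SE 0.57, edgeR adjusted p = 0.853), so its direction depended on which total RNA library was used. In HA against HEK293 GAS5 was at -1.24 and SNHG5 at -1.55, and whether they differ from MALAT1 was not tested.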
